A study of Homo sapiens and Mus musculus with 74 samples.

Results

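Giant cytoskeletal linker proteins are very long proteins that tie actin, microtubules, intermediate filaments, the nuclear envelope and the plasma membrane to one another. The 10 genes described here are Macf1, Dst, Plec, Sptan1, Sptbn1, Syne1, Syne2, Dmd, Utrn and Ahnak, chosen by name. They are 10 of the 22484 genes that have a coding row in the mouse count table, and they hold 139 of its 142604 rows, where a row is 1 annotated transcript. Each gene is followed through the row with its longest protein, which ranges from 2363 amino acids in Sptbn1 to 8799 in Syne1.

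The study deleted the whole coding sequence of Rpl41, the gene of a very small ribosomal protein, in C57BL/6J zygotes with CRISPR-Cas9. Kidney and brain of 10-week-old male mice were compared between wild-type (WT) and Rpl41-/- knockout (KO) animals, with 3 libraries per genotype. RNA-seq and Ribo-seq were available for both tissues and disome-seq for kidney, 30 mouse libraries in all. Knockout affects every cell of the animal, and the sample labels give replicate numbers but do not say which libraries came from the same animal, so p-values measure the spread between these libraries.

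Ribo-seq sequences the fragments that single ribosomes protect (ribosome-protected fragments, RPFs), and disome-seq the longer fragments under a pair of adjacent ribosomes. Translation efficiency (TE) is the change of RPFs on KO relative to the change of RNA. Levels are in CPM, that is counts scaled to the size of the library within each tissue and assay, with the normalization factors of edgeR. Fold changes are KO over WT on the log2 scale with standard errors (SE), and adjusted p-values come from the quasi-likelihood test of edgeR, adjusted by Benjamini and Hochberg's method over every row tested, with 0.05 as the threshold for a call.

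Spectrins form tetramers of alpha and beta chains under the plasma membrane and are among the most abundant cytoskeletal proteins of neurons. Plakins and nesprins connect filament systems to junctions and to the nuclear envelope, while dystrophin and utrophin join actin to a transmembrane complex that binds the extracellular matrix. Most of these proteins are chains of repeated structural modules, and a ribosome has to stay on their coding sequences far longer than on those of average genes.

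All 30 libraries fit their labels. Rpl41 had 3695 to 12199 RNA-seq reads in WT libraries and 3 to 12 in KO libraries, and 37 to 85 Ribo-seq reads in WT against 0 to 4 in KO. Its disome reads numbered 71 to 154 in WT libraries, against at most 2 in KO. Kidney libraries held between 11036643 and 42452425 counts for footprints, between 44998381 and 55077048 for RNA and between 1187636 and 3018963 for disomes. Brain libraries held between 9498663 and 35881929 counts for footprints and between 84433838 and 123745890 for RNA. Kidney markers such as Lrp2 and Umod summed to 3740 to 4160 CPM in kidney RNA-seq and to at most 0.65 CPM in brain RNA-seq. Brain markers such as Snap25 and Syt1 summed to 2080 to 2720 CPM in brain RNA-seq and to at most 1.25 CPM in kidney.

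Macf1 (microtubule-actin crosslinking factor, ENSMUST00000097897, GRCm38 chromosome 4 from 123349633 to 123684360, 98 exons) and Dst (dystonin, ENSMUST00000183034, chromosome 1 from 33908225 to 34307592, 103 exons) are spectraplakins that bind both actin and microtubules. Plec (plectin, ENSMUST00000073418, chromosome 15 from 76170974 to 76206321, 33 exons) binds intermediate filaments. Sptan1 (ENSMUST00000129241, chromosome 2 from 29978380 to 30031184, 57 exons) and Sptbn1 (ENSMUST00000006629, chromosome 11 from 30099395 to 30268169, 36 exons) encode the non-erythroid alpha and beta spectrins. Syne1 (ENSMUST00000215295, chromosome 10 from 5020917 to 5550678, 146 exons) and Syne2 (ENSMUST00000044217, chromosome 12 from 75818318 to 76110900, 116 exons) encode nesprins of the outer nuclear membrane.

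Dmd (dystrophin, ENSMUST00000114000, chromosome X from 82948903 to 85206141, 79 exons) and Utrn (utrophin, ENSMUST00000076817, chromosome 10 from 12382188 to 12861735, 74 exons) are close relatives. Ahnak (ENSMUST00000092956, chromosome 19 from 8989284 to 9019196, 5 exons) encodes a repeat-rich protein under the plasma membrane that binds annexin A2 with S100A10. Of the 16941 windows of 28 bases in its coding sequence, 30.8% occurred more than once in the row. One of the most frequent windows, found 15 times, is shown because a footprint from it cannot be placed at a single copy:

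Ahnak repeat: ggcccagactggcacctgaagatgccca

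No window of Ahnak occurred in a transcript of another gene, so a read that spans a whole window has no exact match in another gene's transcript. Shorter footprints, down to 17 nt, were not checked. With multimapping allowed, a read from a repeated window may also have been counted more than once in the Ahnak row. Whether this raised the level of Ahnak was not tested. Repeated windows made up 0.527% of Plec and none of the other 8 genes. Windows shared with transcripts of other genes made up 2.2% of Dst, 0.327% of Plec and 0.127% of Sptbn1, and none of the other 7 genes. Because multimapping reads were allowed, values of Dst carry this small share.

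Dmd has to be read through its promoters. The row of the full-length protein of 3678 amino acids contains the last exons that the short dystrophin Dp71 (617 amino acids) also uses, so reads of Dp71 count for both. The start codons are 2 separate sites on the plus strand of chromosome X, and their first coding bases are shown with the ATG in capitals to mark that the proteins begin with different sequence. Full-length dystrophin starts at chrX:82949117-82949137 and Dp71 at chrX:85048440-85048459.

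Full-length dystrophin start: ATGctttggtgggaagaagta

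Dp71 start: ATGagggaacacctcaaagg

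In kidney Ribo-seq, the Dp71 row held 93.5, 90.1 and 94.1% of the footprints of the full-length row in WT and 95.7, 97.9 and 96.1% in KO. In brain Ribo-seq it held 48.5, 57.0 and 51.7% in WT and 57.5, 57.0 and 49.7% in KO. The shared exons thus took nearly all Dmd footprints in kidney and about as many as the rest of the gene in brain. Every KO kidney library lay above every WT one, while the brain groups overlapped. The kidney separation rests on few footprints outside the Dp71 row. That row held 95 of 101 footprints in WT kidney library 3 and 89 of 93 in KO kidney library 1. How often such shares separate in other genes, and whether promoter use changed, was not tested.

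In WT animals the genes were used very differently by the tissues. Comparing levels per kilobase of coding length, Sptbn1 led in kidney with 17.4 ± 1.01 RPF CPM per kb (SD, n = 3), followed by Sptan1 with 13.0 ± 1.02 and Ahnak with 5.66 ± 1.75. Syne2 stood at 3.09 ± 0.423. Dst, Utrn, Macf1 and Plec lay between 2.19 and 1.68 with each pair of neighbours overlapping between libraries, and Dmd (0.689 ± 0.0255) and Syne1 (0.39 ± 0.0726) were lowest. The Dmd level divides by the full-length coding sequence of 11034 nt in both tissues. In WT kidney 90.1 to 94.1% of its footprints lay in the row of the much shorter Dp71. In kidney its level and its place in the order thus rest mostly on exons shared with Dp71. They do not measure full-length dystrophin alone.

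In brain, Sptan1 led with 22.7 ± 3.13 RPF CPM per kb (SD, n = 3) before Sptbn1 with 14.4 ± 2.63, Syne1 with 6.65 ± 1.42 and Dst with 4.12 ± 0.737. Plec, Macf1, Ahnak, Dmd and Utrn followed from 2.89 to 1.75, with each pair of neighbours overlapping, and Syne2 was lowest with 0.423 ± 0.212. The nesprins thus changed places between the tissues, since Syne1 was last in kidney and Syne2 last in brain.

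The direct test of WT brain against WT kidney called 5 genes higher and 3 lower in RPFs (all rows: 36.3% higher and 35.5% lower) and 4 higher and 4 lower in RNA (all rows: 34.3% and 26.7%). Syne1 differed most, with a log2 fold change of 3.96 (SE 0.19, adjusted p = 6.82e-13) in RPFs and 3.37 (SE 0.33, adjusted p = 9.15e-07) in RNA. Syne2 went the other way, at -2.96 (SE 0.23, adjusted p = 1.45e-09) in RPFs and -3.09 (SE 0.15, adjusted p = 1.08e-09) in RNA. Ahnak was also lower in brain, at -1.44 (SE 0.21) in RPFs and -2.15 (SE 0.14) in RNA.

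Dmd was higher in brain, at 1.24 (SE 0.13) in RPFs and 1.40 (SE 0.20) in RNA, as were Plec (0.66 and 0.77) and Sptan1 (0.69 and 0.51). Sptbn1 was lower in brain, at -0.39 (SE 0.14, adjusted p = 0.0174) in RPFs and -0.53 (SE 0.16, adjusted p = 0.0117) in RNA, so the alpha and beta spectrin chains differed between the tissues in opposite directions. The RPF difference of Sptbn1 was negative under all 21 alternatives and called in 16. Dst was called in RPFs alone (0.80, SE 0.13), and Utrn in RNA alone (-0.38, SE 0.14), while Macf1 missed the threshold in both. In bulk tissue, fewer cells of a type and less RNA per cell cannot be told apart.

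**Figure D1:**
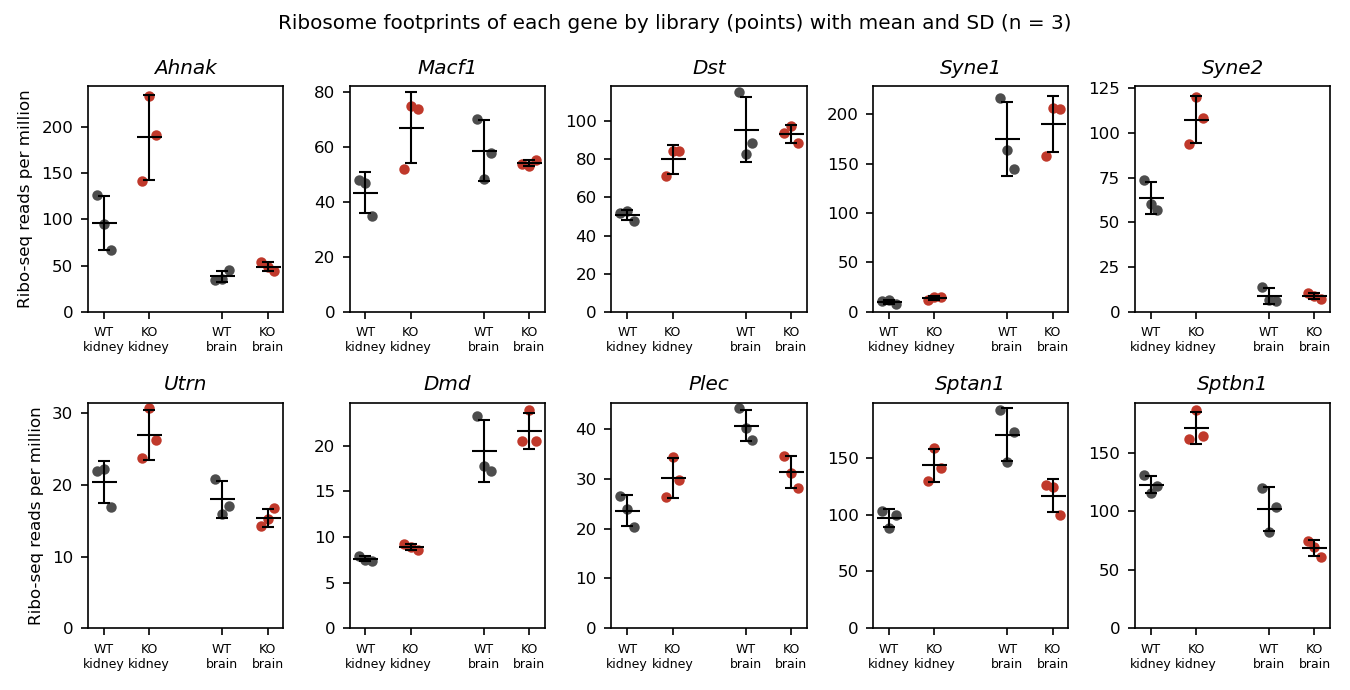
Ribo-seq CPM of each gene (vertical axis, from 0, on its own scale per panel) in WT (grey) and KO (red) libraries of kidney and brain, with points for libraries and bars for the mean and SD of 3. In kidney every KO point lies above every WT point for all genes but Syne1 and Plec, whereas in brain Sptan1, Sptbn1 and Plec lie below.

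On loss of Rpl41, kidney footprints of these genes were higher. All 10 fold changes were positive, against 48.4% of the 75266 rows tested, and 6 genes rose past the threshold, against 4.75% of rows called higher. The 6 were Ahnak, Syne2, Dst, Macf1, Sptan1 and Sptbn1. No gene fell, against 3.01% of rows called lower.

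Syne2 had 73.5, 60.5 and 56.9 RPF CPM in WT kidneys and 94.0, 120 and 108 in KO kidneys. The groups did not overlap, and the log2 fold change was 0.76 (SE 0.13, adjusted p = 0.00921). Syne1, the other nesprin, had 11.2, 11.6 and 8.08 CPM in WT and 11.5, 15.3 and 15.1 in KO. KO library 1 fell inside the WT range, and the change of 0.46 (SE 0.15, adjusted p = 0.0706) was not called.

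Among the plakins, Dst had 51.9, 52.6 and 47.5 RPF CPM in WT kidneys and 71.2, 84.1 and 84.5 in KO kidneys, a change of 0.66 (SE 0.11, adjusted p = 0.00862). Macf1 had 48.1, 47.0 and 34.7 CPM in WT and 52.1, 75.0 and 73.9 in KO, a change of 0.63 (SE 0.16, adjusted p = 0.0305). Both were separated between genotypes, although KO library 1 lay closest to WT for each. Plec had 26.6, 23.9 and 20.3 CPM in WT and 26.3, 34.3 and 29.7 in KO, overlapping, with a change of 0.35 (SE 0.13, adjusted p = 0.105).

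The spectrin chains moved by similar amounts. Sptan1 had 103, 88.4 and 100 RPF CPM in WT kidneys and 130, 159 and 141 in KO kidneys, a change of 0.56 (SE 0.12, adjusted p = 0.0188). Sptbn1 had 131, 116 and 122 CPM in WT and 162, 187 and 165 in KO, a change of 0.48 (SE 0.12, adjusted p = 0.0306). Neither gene's groups overlapped.

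Ahnak had the largest change of the 10 and also the widest spread, with 126, 95.1 and 66.8 RPF CPM in WT kidneys and 142, 233 and 191 in KO kidneys (0.97, SE 0.22, adjusted p = 0.0198). Utrn had 21.9, 22.3 and 17.0 CPM in WT and 23.8, 30.7 and 26.3 in KO, a change of 0.41 (SE 0.13, adjusted p = 0.0727). Dmd had 7.93, 7.46 and 7.42 CPM in WT and 9.19, 8.93 and 8.58 in KO, a change of 0.22 (SE 0.11, adjusted p = 0.235). Both were separated between genotypes without being called. In all, 8 of the 10 genes had every KO library above every WT library, against 15.5% of rows.

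The median change was 0.52 over the 10 genes and -0.01 over all rows. Other genes whose proteins are at least as long as that of Sptbn1 also stood above the rows as a whole. Of 244 such genes tested, 98 (40.2%) rose and 7 fell, with a median of 0.42. The calls depended on single libraries. Leaving out KO kidney Ribo-seq library 2 or library 3 left 0 genes called (0.713 and 0.392% of rows called in either direction). Leaving out WT library 2 left 2 (3.42%), and leaving out KO library 1 gave 7 (6.45%), while the median stayed between 0.45 and 0.60. KO libraries 2 and 3 were also the deepest, with 42452425 and 39384669 counts. KO library 1 held 11036643 counts and the WT libraries 13573525 to 25882664. The part of depth in the calls was not tested.

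Marker sums of other cell types also differed in the kidney Ribo-seq libraries. Endothelial markers (8 genes) summed to 249 to 257 CPM in KO, above every WT library, the lowest of which stood at 143. Immune markers (6 genes) summed to 88.1 to 121 CPM in WT and 150 to 170 in KO, and no gene of either list was at 0. Kidney markers (6 genes) summed to 3590 to 4230 CPM in WT and 4820 to 5680 in KO. Smooth muscle markers (77.0 to 122 against 95.9 to 132), fibroblast markers (154 to 228 against 202 to 297) and blood markers (771 to 987 against 469 to 994) overlapped. The part of these cells in the change of the linker genes was not tested. In kidney RNA-seq the endothelial sum was 139 to 176 CPM in WT and 133 to 143 in KO, the immune sum 93.6 to 125 in WT and 126 to 140 in KO, and the smooth muscle sum 84.1 to 118 in WT and 67.0 to 73.7 in KO.

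No such rise was called in kidney RNA. None of the 10 was called in either direction by edgeR (0.0% of rows higher, 0.00992% lower), 4 had an unadjusted p under 0.05 (16.8% of rows), and 9 of 10 fold changes were negative, against 51.9% of rows. DESeq2 also called 0. Limma voom with quality weights called 5, all lower, and with them 41.6% of all rows in either direction.

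Dst had 43.7, 39.5 and 44.2 RNA CPM in WT kidneys and 37.4, 20.7 and 18.7 in KO kidneys, a change of -0.73 (SE 0.26, adjusted p = 0.292). Syne1 had 6.90, 7.17 and 7.74 CPM in WT and 6.01, 1.78 and 3.19 in KO, a change of -0.98 (SE 0.39, adjusted p = 0.292). For both genes the groups did not overlap, and KO libraries 2 and 3 were far lower than KO library 1. Sptan1 (-0.40, SE 0.14) and Plec (-0.35, SE 0.13) were also lower in every KO library, as was Ahnak (-0.13, SE 0.13), which makes 5 of 10 genes against 10.1% of rows.

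The RNA values of such long genes depend on where along the transcript the reads fall. A short Macf1 row of the table covers the last 10.7% of the long row. It held 70.8, 75.7 and 63.8% of the RNA-seq reads of the long row in WT kidneys and 74.0, 90.3 and 87.6% in KO kidneys. In Ribo-seq it held 4.10, 4.57 and 4.86% in WT and 6.06, 5.66 and 5.25% in KO. RNA-seq reads of Macf1 thus lay mostly at the 3′ end, and most of all in KO kidney libraries 2 and 3, while footprints did not.

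The same libraries stood apart at other genes. A short Syne2 row over the last 15.9% of the long row held 68.4, 72.2 and 63.0% of the RNA-seq reads of the long row in WT kidneys and 69.5, 87.6 and 88.4% in KO kidneys. The Dst row used here lacks the last 1058 bases of another row of the gene (7406 amino acids), and its RNA-seq count was 55.0, 47.5 and 62.4% of that of the other row in WT and 49.4, 22.4 and 23.4% in KO. The Sptan1 row used here lacks the last 264 bases of another row, and had 83.8, 79.5 and 86.1% of its RNA-seq count in WT and 78.8, 60.8 and 66.1% in KO. In kidney Ribo-seq the Dst ratio was 101 to 102% in all 6 libraries and the Sptan1 ratio 100%.

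Read through the rows that reach further 3′, the kidney RNA change was 0.09 (SE 0.14) for Dst and -0.11 (SE 0.15) for Sptan1. Without KO kidney RNA-seq libraries 2 and 3, which leaves 1 KO library assumed to vary like the WT group, it was -0.18 for Dst, -0.27 for Syne1 and -0.27 for Sptan1. In their longest-protein rows, the RNA changes of Dst, Syne1 and Sptan1 were thus smaller in size without these libraries. Those of Sptbn1 (-0.31, from -0.06) and Ahnak (-0.27, from -0.13) were larger in size, and the median over the 10 genes went from -0.24 to -0.27. The RPF changes of Dst and Sptan1 were nearly the same in either row, with 0.65 (SE 0.11, adjusted p = 0.00913) for Dst and 0.56 (SE 0.12, adjusted p = 0.0189) for Sptan1 through those rows.

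TE in kidney, which uses the same Ribo-seq and RNA-seq libraries as the comparisons above, was positive for all 10 genes, against 53.6% of rows. The median was 0.76 over the genes, 0.07 over all 89685 rows and 0.33 over 274 other genes with long proteins. No gene was called by edgeR's quasi-likelihood test, nor was any row (0.0% of all), and the smallest adjusted p was 0.109 for Sptan1. An unadjusted p under 0.05 was reached by 9 of the 10 (18.9% of rows). DESeq2 called 5 of the 10 as higher (4.6% of rows called in either direction), limma voom with quality weights 9 (29.9%), and edgeR with 1 transcript per gene 5 (2.09%). Leaving out KO kidney RNA-seq library 1 gave 6, where 17.8% of rows were called.

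The TE fold change was 1.41 (SE 0.47) for Syne1, 1.37 (SE 0.31) for Dst, 1.09 (SE 0.30) for Ahnak and 0.95 (SE 0.18) for Sptan1. Syne2 (0.79), Macf1 (0.73), Plec (0.69), Dmd (0.60), Sptbn1 (0.53) and Utrn (0.31) followed. With the rows that reach further 3′ it was 0.56 (SE 0.19) for Dst and 0.67 (SE 0.19) for Sptan1. Without KO RNA-seq libraries 2 and 3, it was 0.69 for Syne1, 0.81 for Dst and 0.80 for Sptan1, and the median over the 10 genes was 0.70.

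**Figure D2:**
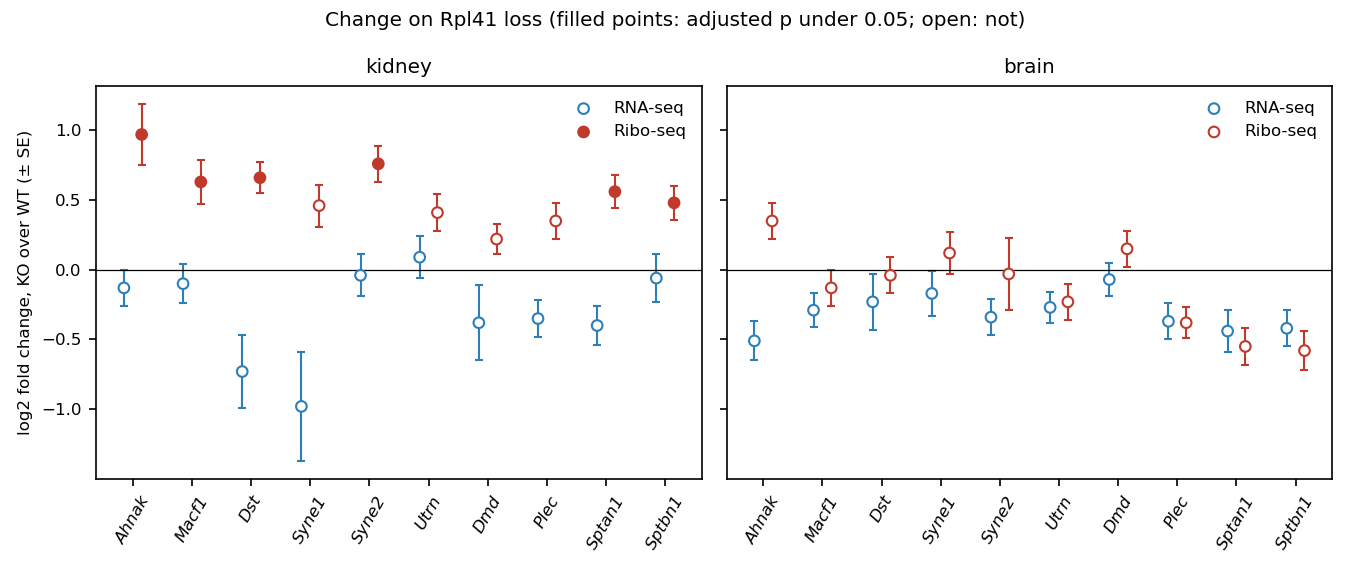
Log2 fold change of KO over WT with its standard error (vertical axis) for each gene in RNA-seq (blue) and Ribo-seq (red) of kidney and brain, with filled points where the adjusted p was under 0.05. In kidney all 10 Ribo-seq points lie above 0 and 6 are filled, and in brain no point is filled and 7 of 10 Ribo-seq points lie below 0.

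Disome footprints in kidney, fewer than those of single ribosomes, had no such calls. None of the 10 genes was called in either direction, against 0.0691% of rows called higher and 0.132% lower, and only Syne2 had an unadjusted p under 0.05 (10.8% of rows). DESeq2 and limma voom with quality weights also called 0. A replicate block, which pairs libraries of the same number, called 0 of the 10 as well, with 252 calls among all rows in place of 70. Fold changes ran from -0.32 in Syne1 to 0.51 in Syne2, with a median of 0.05.

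Syne2 had 222, 290 and 127 disome CPM in WT and 259, 356 and 307 in KO. Dst had 252, 292 and 150 CPM in WT and 170, 322 and 207 in KO, and Macf1 had 150, 167 and 106 in WT and 128, 178 and 154 in KO. WT library 3 was the lowest of its group in all 3 genes, and the genotypes overlapped for all 10 genes (every KO library was above every WT library in 8.07% of rows and below in 8.9%). Counts were small at this depth, from 103 to 403 reads per library for Ahnak and from 3 to 26 for Dmd, whose change was 0.03 (SE 0.36). In the same libraries the endothelial marker sum was 66.2 to 94.7 CPM in WT and 97.5 to 111 in KO, and the blood marker sum 288 to 322 in WT and 160 to 231 in KO. The immune sum was 55.4 to 74.3 CPM in WT, with Ms4a1 at 0, and at least 77.8 in KO, with Cd3e at 0. Fibroblast markers summed to 31.7 to 41.1 CPM in WT and 41.8 to 67.1 in KO, and kidney markers to 2230 to 2490 in WT and 2740 to 3080 in KO. Smooth muscle markers overlapped (47.1 to 77.9 against 58.5 to 66.8). Their part in the disome values was not tested.

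Set against the RPF change in kidney, the disome change was negative for all 10 genes, against 50.7% of rows. The median was -0.48 over the genes, -0.01 over all 67065 rows and -0.23 over 222 other genes with long proteins. No gene and no row was called (0.0% of all), with 4 of the 10 at an unadjusted p under 0.05 (5.84% of rows). DESeq2 and limma voom with quality weights called 0 of the 10, as did the replicate block, with 14 calls among all rows. A block that, within a genotype, joins the Ribo-seq and disome-seq libraries that share a number called Ahnak lower (-0.71, adjusted p = 0.0241 with edgeR) and 207 rows in all.

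The values nearest to a call were those of Syne1 (-0.77, SE 0.34), Ahnak (-0.71, SE 0.32), Dst (-0.64, SE 0.28) and Sptan1 (-0.47, SE 0.20), with adjusted p-values of 0.841, 0.841, 0.841 and 0.839 from edgeR. Syne2 (-0.23, SE 0.28), Dmd (-0.16, SE 0.34) and Sptbn1 (-0.13, SE 0.22) were nearest to 0. This contrast contains the RPF change with its sign turned, so it is not independent of the rise in kidney footprints.

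**Figure D3:**
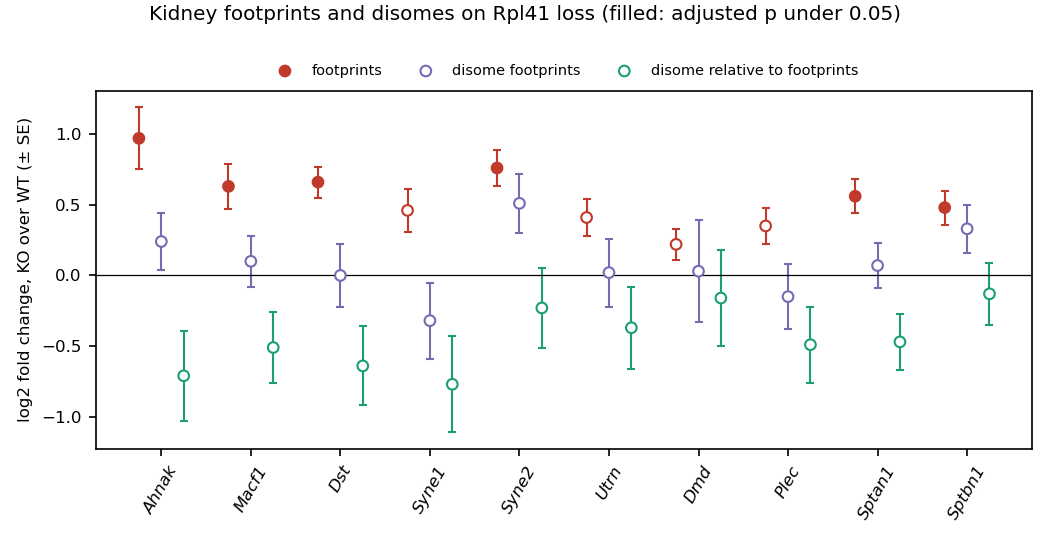
Log2 fold change of KO over WT in kidney with its standard error (vertical axis) for each gene in footprints (red), disome footprints (purple) and disomes relative to footprints (green), with filled points where the adjusted p was under 0.05. Footprint points lie between 0.22 and 0.97, disome points between -0.32 and 0.51, and the relative change is below 0 for every gene.

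The place of footprints along the coding sequence was compared through partial rows. For 5 of the genes the table has a coding row that covers only the 5′ part of the long row, ending within its first 2/3, a rule chosen after the counts were seen. They end at base 11891 of 23495 in Macf1, 1794 of 21690 in Syne2, 10517 of 23201 in Dst, 2279 of 12382 in Utrn and 3075 of 15455 in Plec. The Macf1 row leaves out stretches before that base and shares 5419 bases with the long row.

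The share of kidney footprints in the 5′ row was lower on average in KO for all 5. For Macf1 it was 49.0, 45.9 and 46.7% in WT and 44.9, 40.0 and 43.0% in KO, and for Syne2 it was 16.4, 17.2 and 14.8% in WT and 12.9, 9.72 and 11.4% in KO. These 2 genes had every KO library below every WT library, against 9.31% of 2299 genes with such a row and at least 30 reads in it per library. Plec (31.0, 29.3 and 30.0% against 29.7, 26.8 and 27.3%), Dst (33.1, 30.5 and 29.1% against 28.8, 29.6 and 28.9%) and Utrn (25.8, 25.3 and 17.7% against 18.3, 22.3 and 20.9%) overlapped.

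The median difference over all 2299 genes was 0.00396 percentage points. Over 43 other genes with proteins at least as long as that of Sptbn1 it was -1.85 points, and 16 of these (37.2%) had every KO library below every WT library, while 5 had every KO library above. With 3 libraries against 3, an exact permutation test of 1 gene cannot go below a two-sided p of 0.1. In kidney disomes the Macf1 share was also apart, at 33.0, 34.2 and 30.8% in WT and 26.5, 28.8 and 24.7% in KO (8.57% of 280 genes), while the Dst share overlapped.

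In brain Ribo-seq the shares of Macf1 (39.5, 37.0 and 40.5% in WT, 36.3, 39.0 and 36.7% in KO) and Plec overlapped. Dst was apart, at 25.7, 27.8 and 27.5% in WT and 23.8, 21.8 and 25.1% in KO (7.39% of 2475 genes). Among the other long genes in brain, 2 of 44 had every KO library below and 3 every KO library above, with a median difference of -0.475 points.

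**Figure D4:**
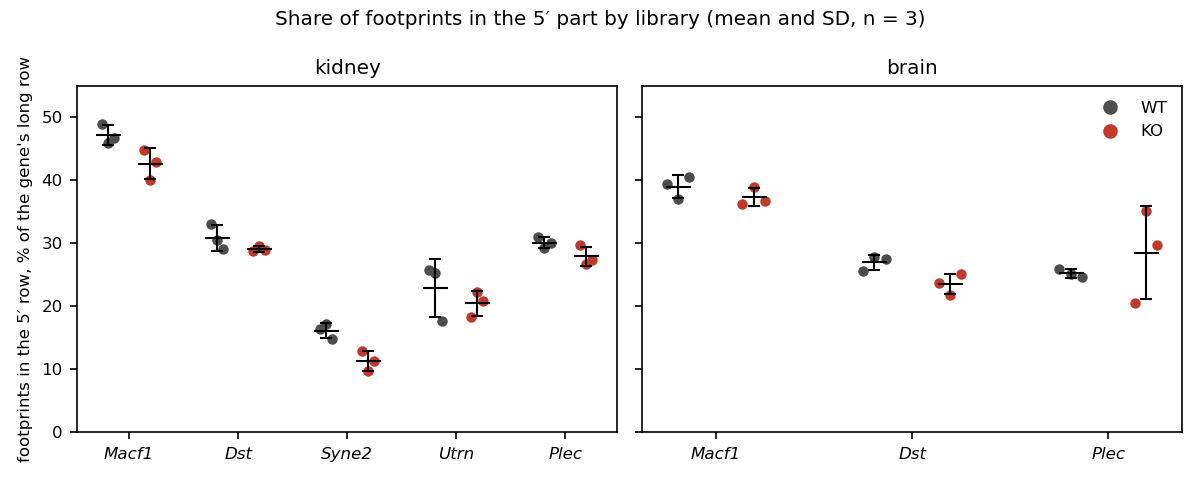
Footprints in a row that covers only the 5′ part of the gene, as a percentage of the footprints of the long row (vertical axis, 0 to 55%), for WT (grey) and KO (red) libraries of kidney and brain, with points for libraries and bars for the mean and SD of 3. In kidney the KO points of Macf1 and Syne2 lie below all WT points, and in brain those of Dst do.

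Brain gave another picture. In brain Ribo-seq none of the 10 genes was called (0.00123% of rows higher, 0.0333% lower), 4 had an unadjusted p under 0.05 (12.6% of rows), and 7 of 10 fold changes were negative (52.3% of rows). The median was -0.08 over the genes, -0.01 over all rows and 0.18 over 259 other genes with long proteins. DESeq2 called Sptan1 and Sptbn1 lower (0.443% of rows called in either direction), and limma voom with quality weights called 0.

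Sptan1 had 192, 146 and 173 RPF CPM in WT brains and 126, 124 and 99.7 in KO brains, a change of -0.55 (SE 0.13, adjusted p = 0.189). Sptbn1 had 120, 82.7 and 104 CPM in WT and 74.5, 69.7 and 61.2 in KO, a change of -0.58 (SE 0.14, adjusted p = 0.189). Plec had 44.1, 40.1 and 37.8 CPM in WT and 34.5, 31.2 and 28.1 in KO, a change of -0.38 (SE 0.11, adjusted p = 0.25). In these 3 genes every KO library lay below every WT library (8.7% of rows).

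Ahnak had the only brain RPF change above 0 with an unadjusted p under 0.05. It had 34.7, 35.2 and 44.8 CPM in WT and 54.2, 48.5 and 44.0 in KO, overlapping, with a change of 0.35 (SE 0.13, adjusted p = 0.307). The other genes stayed within -0.23 (Utrn) and 0.15 (Dmd). Syne1, the nesprin with the higher level in brain, had 217, 164 and 145 CPM in WT and 158, 207 and 206 in KO, a change of 0.12 (SE 0.15).

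Brain RNA was lower on average in KO for all 10 genes (52.3% of rows), from -0.07 in Dmd to -0.51 in Ahnak. The median was -0.32 over these genes, -0.02 over all rows and -0.1 over 260 other genes with long proteins. None of the 10 was called (0.0134% of rows were called lower), by DESeq2 or limma voom with quality weights either, while 7 had an unadjusted p under 0.05 (3.46% of rows). Ahnak had 10.7, 9.87 and 12.4 RNA CPM in WT brains and 8.67, 6.89 and 7.55 in KO brains (-0.51, SE 0.14, adjusted p = 0.898). Sptbn1 had 94.0, 74.7 and 96.4 CPM in WT and 63.8, 66.5 and 67.2 in KO (-0.42, SE 0.13, adjusted p = 0.898).

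With Macf1, Syne2, Utrn, Plec and Sptan1, these made 7 genes with every KO library below every WT library, against 4.43% of rows. Here too the place of reads differed between libraries. The short 3′ row of Macf1 held 70.5, 66.7 and 51.7% of the RNA-seq reads of the long row in WT brains and 53.6, 74.4 and 74.9% in KO brains. WT library 3 and KO library 1 were thus the ones with fewer reads at the 3′ end. Without them, which leaves 2 libraries per genotype, 5 of the 10 genes (Ahnak, Sptbn1, Plec, Macf1 and Utrn) were called lower by edgeR, with 9281 calls among all rows (10.5%), and the median was -0.35.

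Blood markers also differed in the brain libraries, with a sum over 5 genes of 636 to 1840 CPM in WT and 346 to 443 in KO in Ribo-seq. Smooth muscle markers (7 genes) summed to 43.5 to 58.7 CPM in WT and 38.0 to 39.9 in KO in brain RNA-seq. Endothelial markers overlapped in both assays, with 34.7 to 46.9 against 26.8 to 35.1 CPM in RNA-seq. The part of these cells in the values of the linker genes was not tested.

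TE in brain was called for none of the 10 genes and for no row (0.0%), and 1 gene had an unadjusted p under 0.05 (4.73% of rows). That gene was Ahnak, with a change of 0.89 (SE 0.20, adjusted p = 0.895), which DESeq2 did not call and limma voom with quality weights did (0.195% of rows called). The TE change was positive in 8 of 10 genes (52.8% of rows), and Sptan1 (-0.08, SE 0.21) and Sptbn1 (-0.12, SE 0.20) were the only negative values. The median was 0.21 over the genes, 0.03 over all rows and 0.3 over 279 other genes with long proteins.

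The difference between the tissues was tested directly, as brain change minus kidney change. For RPFs it was negative in all 10 genes (48.6% of rows), and 2 of the 10 were called lower, against 0.0293% of 88666 rows. These were both spectrin chains, Sptan1 at -1.10 (SE 0.19, adjusted p = 0.0414) and Sptbn1 at -1.05 (SE 0.19, adjusted p = 0.0495). No gene was called higher (0.0474% of rows). Footprints of each chain were thus higher in every KO library than in every WT library in kidney, and lower in every KO library in brain.

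These calls lay close to the threshold. They were lost with library size alone, with at least 10 counts in every library, with counts summed per gene, with a replicate block and on leaving out any 1 of 8 libraries, namely WT kidney 1 and 2, KO kidney 2 and 3, WT brain 1 and 3, and KO brain 2 and 3. Leaving out WT kidney library 3 or KO kidney library 1 lost the call of Sptbn1, and DESeq2 called 4 genes (0.255% of rows). The difference itself ran from -1.22 to -1.0 for Sptan1 and from -1.19 to -0.92 for Sptbn1 over the alternatives. Plec (-0.73, SE 0.18, adjusted p = 0.241) and Dst (-0.69, SE 0.18, adjusted p = 0.285) had the next smallest adjusted p-values, and Dmd was nearest to 0 (-0.06, SE 0.18).

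For RNA the tissue difference was called for none of the 10 genes by edgeR or DESeq2 and for 3 by limma voom with quality weights, which called 15.7% of all rows (edgeR called 0.00108% of rows lower and 0.0% higher), with no gene at an unadjusted p under 0.05 (8.47% of rows). Sptan1 stood at 0.01 (SE 0.21) and Sptbn1 at -0.32 (SE 0.23). A p that misses the threshold does not show that the RNA of the spectrins changed alike in the tissues.

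Genes that work with the linkers were followed through 8 lists with 74 genes in all. In kidney RPFs, 60 were tested, 12 rose and 1 fell, with a median of 0.21. Of all rows, 4.75% were called higher and 3.01% lower. Of the other genes with long proteins, 40.2% were called higher. Actin crosslinkers had the most, with 5 of 9 higher and a median of 0.55. In the spectrin skeleton 2 of 11 rose, in the nuclear envelope partners 2 of 9, in the plakin relatives 2 of 7 and in the microtubule end partners 1 of 7.

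Dsp (desmoplakin, a plakin of desmosomes) had 11.4, 13.6 and 9.04 RPF CPM in WT kidneys and 14.6, 20.0 and 17.5 in KO kidneys (0.63, SE 0.15, adjusted p = 0.0243). The gene that fell was Nefh, the heavy neurofilament, with 1.5, 2.15 and 1.76 CPM in WT and 0.0988, 0.327 and 0.31 in KO (-2.58, SE 0.31, adjusted p = 0.00168). The genotypes were apart in both, but Nefh was low in every library, at most 2.15 CPM.

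None of the 8 lists had a gene called by edgeR in the other comparisons of KO with WT within a tissue. An unadjusted p under 0.05 was reached there by 4 of 59 genes in kidney RNA (6.78%, against 16.8% of all rows), 20 of 65 in kidney TE (30.8% against 18.9%), 7 of 43 in kidney disomes (16.3% against 10.8%) and 7 of 56 in disomes relative to RPFs (12.5% against 5.84%). In brain it was reached by 4 of 72 in RNA (5.56% against 3.46%), 12 of 70 in RPFs (17.1% against 12.6%) and 3 of 73 in TE (4.11% against 4.73%). Flnc, a filamin of muscle, rose in kidney footprints from 0.588 to 1.21 CPM in WT to 1.48 to 1.96 CPM in KO (0.97, SE 0.28, adjusted p = 0.0485). Flnc was thus also low in every library. Members of the dystrophin complex hold Dmd and Utrn at the membrane. In kidney footprints 10 of them were tested and none was called (4.75% of rows higher, 3.01% lower).

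Genes whose footprints followed the linkers most closely were found among 10451 genes with at least 10 reads in each of the 12 Ribo-seq libraries, after centring each tissue. Pearson correlations with the mean of the 10 genes were among the highest for Col15a1 (0.945), Myh9 (0.942) and Lpp (0.93). In RNA-seq, among 12213 genes, the highest were those of Map3k3 (0.947), Kat6b (0.934), Agrn (0.931), Papln (0.926) and Adgra2 (0.921). These points share genotype, depth and library, so the values describe the libraries.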

How the data were processed

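The authors selected poly(A) RNA for RNA-seq and isolated RNase-protected fragments of 17 to 34 nt for Ribo-seq and 50 to 80 nt for disome-seq. After rRNA removal, STAR placed the reads on mm10 with multimapping allowed, and the authors deposited raw read counts per transcript from featureCounts, without normalization. Tool versions are not given in the sources used here. A read matching several transcripts can count for each. The 44 human samples were not analysed here, since the columns of their table carry titles of mouse samples. Rows were matched to GENCODE release 21 (GRCm38; 141374 of 142604), from which coordinates and sequences were read.

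KO and WT were compared with edgeR 4.0.16 (R 4.3.3; filterByExpr, TMM, quasi-likelihood test) over all transcripts. TE and disomes relative to RPFs were assay by genotype terms, and the tissue difference a tissue by genotype term. SE was derived as the size of log2 fold change divided by the root of the F statistic. Alternatives were DESeq2 1.42.0, limma voom 3.58.1 with quality weights, library size alone, other filters, 1 transcript per gene, counts summed per gene, replicate blocks and each library left out. Scripts were tested on simulated data. The main fits had no block, and the labels name no pairs of WT and KO libraries. Deviations of same-numbered WT and KO disome libraries correlated at 0.119, 0.21 and 0.118. All were above those of differently numbered disome libraries, which ran from -0.144 to 0.0276. Whether disome libraries of the same number share an origin was not tested. In kidney Ribo-seq, WT 1 and KO 2 reached 0.166 without sharing a number. The replicate block, run as an alternative, changed the disome call of none of the 10 genes.

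All 10 genes are named. Of partner genes, up to 3 with the largest rise and 3 with the largest fall per comparison are named if called and apart between genotypes, as are genes among the 5 most like the 10 in each assay. Some genes that this rule picks are not reported here. The genes and lists were chosen with earlier results of these data known, and the partial rows after the counts were seen.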

Additional observations from a re-analysis of the deposited data

Results flagged for a closer look

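The footprint change of Sptan1 on Rpl41 loss differed between brain and kidney by -1.10 on the log2 scale (SE 0.19), and that of Sptbn1 by -1.05 (SE 0.19). Both were flagged because the tissue by genotype term of edgeR's quasi-likelihood test was past the threshold, with adjusted p-values of 0.0414 and 0.0495. In kidney both chains had every KO library above every WT library, and in brain every KO library below. The matching term in RNA was 0.01 (SE 0.21) for Sptan1 and -0.32 (SE 0.23) for Sptbn1, and neither was called.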

How the results depend on the processing

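The count of genes called in kidney RPFs was 6 with edgeR, from 4 (replicate block, library size alone, counts summed per gene) to 9 (no filter), and from 0 to 7 on leaving out 1 library, with 0 without KO library 2 or 3. Calls appeared where there were 0 in kidney RNA (limma voom 5, leaving out 1 library 0 to 2), kidney TE (DESeq2 5, 1 transcript per gene 5, limma voom 9, leaving out 1 library 0 to 6), disomes relative to RPFs (replicate block across assays 1, Ahnak), brain RNA (without WT library 3 and KO library 1, an alternative added after seeing the data, 5), brain RPFs (DESeq2 2, no filter 2), brain TE (limma voom 1, without the same RNA-seq libraries 1) and the tissue difference in RNA (limma voom 3, leaving out 1 library 0 to 2). For the tissue difference in RPFs, 2 calls became 4 with DESeq2, 0 with library size alone, 0 with a minimum of 10 counts, 0 with counts summed per gene, 0 with a replicate block, and 0 to 2 on leaving out 1 library. The settings that called most of these genes also called many rows in all: 29361 in kidney RNA and 26780 in kidney TE with limma voom, 4129 in kidney TE with DESeq2, and 12466 in kidney RNA and 16331 in kidney TE without KO kidney RNA-seq library 1. Calls between WT tissues stayed between 7 and 9. Kidney disomes had 0 calls under every setting run. The cause was not tested.

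Correlations of same-numbered deviations ran from -0.356 to 0.357 in RNA-seq and from -0.192 to 0.0634 in Ribo-seq. There, as in disome-seq, the replicate block describes a shared number and not a known pair. All 10 genes stayed positive in kidney RPFs and TE under every alternative, with medians of 0.45 to 0.60 and 0.66 to 0.94. The kidney RNA change of Dst ranged from -1.10 to 0.09, and the values without KO kidney RNA-seq libraries 2 and 3 were also added after seeing the data. Disome-seq had the fewest reads.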
